A study of Mus musculus with 2 samples.

Results

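CpG-rich one-way coding promoters are open promoters of protein-coding genes that lie in DNA dense in CpG dinucleotides and from which coding transcription leaves in a single direction. They were described here in the gastrocnemius, the large muscle of the calf, of the mouse. A member is a merged region of open chromatin that held a peak of each of 2 libraries, lay within 500 bp of a protein-coding start site, had no protein-coding start site on the opposite strand within 1 kb upstream of that site, and had a CpG observed/expected ratio of at least 0.5 in the 1000 bp around its midpoint. The ratio is the number of CpG dinucleotides divided by the number expected from the C and G content. Of 63849 merged regions, 32662 were open in both libraries and 10432 of these were members. They lay nearest to 9615 start sites of 8789 genes, and 8929 of 21851 protein-coding genes had a start site within 500 bp of a member.

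The data are DNase-seq libraries of nuclei from 2 male mice of the strain B6CASTF1/J, a hybrid of C57BL/6J and CAST/EiJ, both aged 36 days, with 1 library each. The labels name no treatment, and both animals formed 1 group, so the values of each library are given side by side and no condition was compared. The libraries are called replicate 1 and replicate 2. Whole tissue was used, so the signal is a sum over the nuclei of every cell type in the muscle, and more cells of a type and more open chromatin per cell cannot be told apart. Replicate 1 had 50760 peaks and replicate 2 had 49230. The value of a peak is the height of its DNase signal in the authors' units, whose scaling is not stated, so each value was also given as its percentile among all peaks of the same library. The depth in reads is unknown.

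Mammalian DNA has lost most of its CpG dinucleotides because methylated cytosine mutates readily. CpG islands escaped this loss since they are mostly unmethylated in the germ line, and they hold the promoters of most housekeeping genes and of many developmental regulators. DNase I cuts DNA where nucleosomes are displaced, so an active or poised promoter appears as a peak, and a protein bound inside it can leave a footprint, a short stretch protected from cleavage. CpG island promoters often start transcription at dispersed positions and are bound by factors such as Sp1, NRF1, NF-Y, GABPA and YY1, many of whose sites contain CpG.

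The sequences below are shown because each holds a match to a motif of such a factor that lay inside a footprint shared by both libraries. Each comes from the member with the highest values for that motif whose stretch lay upstream of the start site and outside annotated exons. They were read from the mm10 (GRCm38) reference, 5' to 3' on the strand of the gene, and capitals mark the motif in either orientation.
Dynlt1b, GC box, chr17:6429987-6430082, plus strand: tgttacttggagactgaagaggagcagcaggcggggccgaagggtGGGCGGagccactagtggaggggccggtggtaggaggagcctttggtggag
Nup107, NRF1, chr10:117792716-117792814, minus strand: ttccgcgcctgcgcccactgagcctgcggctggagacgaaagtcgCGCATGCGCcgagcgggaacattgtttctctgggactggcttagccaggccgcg
Pold3, ETS, chr7:100121573-100121670, minus strand: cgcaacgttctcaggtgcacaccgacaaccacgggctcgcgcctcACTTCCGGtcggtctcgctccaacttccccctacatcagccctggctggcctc
Mxd1, CRE, chr6:86669472-86669569, minus strand: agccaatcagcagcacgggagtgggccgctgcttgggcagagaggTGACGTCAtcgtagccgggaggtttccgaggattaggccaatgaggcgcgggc
Bahcc1, CCAAT box, chr11:120232814-120232910, plus strand: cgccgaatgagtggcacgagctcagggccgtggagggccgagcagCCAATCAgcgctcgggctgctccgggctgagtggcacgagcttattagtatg
Tle4, E-box, chr19:14598343-14598438, minus strand: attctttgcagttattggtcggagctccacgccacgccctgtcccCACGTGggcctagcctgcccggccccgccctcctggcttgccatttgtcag
Cand1, ZBTB33, chr10:119240225-119240323, minus strand: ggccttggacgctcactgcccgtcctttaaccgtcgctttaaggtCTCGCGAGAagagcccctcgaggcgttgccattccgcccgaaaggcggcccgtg
Ppp3ca, CTCF, chr3:136669892-136669990, plus strand: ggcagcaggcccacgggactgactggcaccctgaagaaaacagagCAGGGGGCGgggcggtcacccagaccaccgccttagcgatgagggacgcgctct

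These stretches carry the highest member of all, Dynlt1b, a light chain of the dynein motor, with a peak value of 42.3 in replicate 1 and 32.4 in replicate 2. The NRF1 palindrome of Nup107, a nuclear pore subunit, lay under footprints of 21 bp in replicate 1 and 22 bp in replicate 2, in a region with values of 25.9 and 15.3. The widest footprints of these 8 covered the CCAAT box of Bahcc1 (36 bp and 37 bp), in a region with values of 31.6 and 13.9. The cyclic AMP response element of Mxd1, which encodes a dimerization partner of Max, lay at -360 bp from the start site, where negative is upstream, in a region with values of 23.8 and 11.1. Cand1, an exchange factor of cullin ubiquitin ligases, had values of 15.9 and 9.82, and its ZBTB33 motif lay at -219 bp. Pold3, a DNA polymerase delta subunit, had values of 13.4 and 8.64 and the match nearest to its start site among these 8, at -57 bp. In the stretch of Ppp3ca a GC box (GGGCGG) overlaps the marked CTCF letters, so the footprint there cannot be assigned to either motif.

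Members were among the strongest open regions of the muscle. Their peak values in replicate 1 ranged from 0.333 to 42.3 with a median of 5.04 and quartiles of 2.49 and 8.69. In replicate 2 they ranged from 0.361 to 32.4 with a median of 3.58 and quartiles of 2.08 and 5.55. The median member stood at percentile 84.5 in replicate 1 and 83.7 in replicate 2. Open one-way coding promoters below the CpG threshold, 1533 regions, stood lower, at 64.7 and 62.0, and 15864 distal regions, over 1 kb from any annotated start site, at 53.3 and 52.0. Divergent coding promoters, 1160 regions, stood higher than the members, at 89.5 in both libraries. In the top 20% of values in both libraries were 52.9% of the members (95% exact binomial interval 51.9 to 53.8%, counting error only), against 14.1% of the CpG-poor promoters (12.4 to 15.9%), 67.8% of the divergent ones (65.1 to 70.5%) and 6.26% of the distal regions (5.89 to 6.65%). Read the other way, members were 63.3% of all regions open in both libraries in the top 20% of values, in each library, but 13.8% and 9.44% of those between percentiles 20 and 40 in replicates 1 and 2 and 19.2% and 7.79% of those below percentile 20. The groups overlap widely: 8.81% of the members lay below the library median in both animals.

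**Figure D1:**
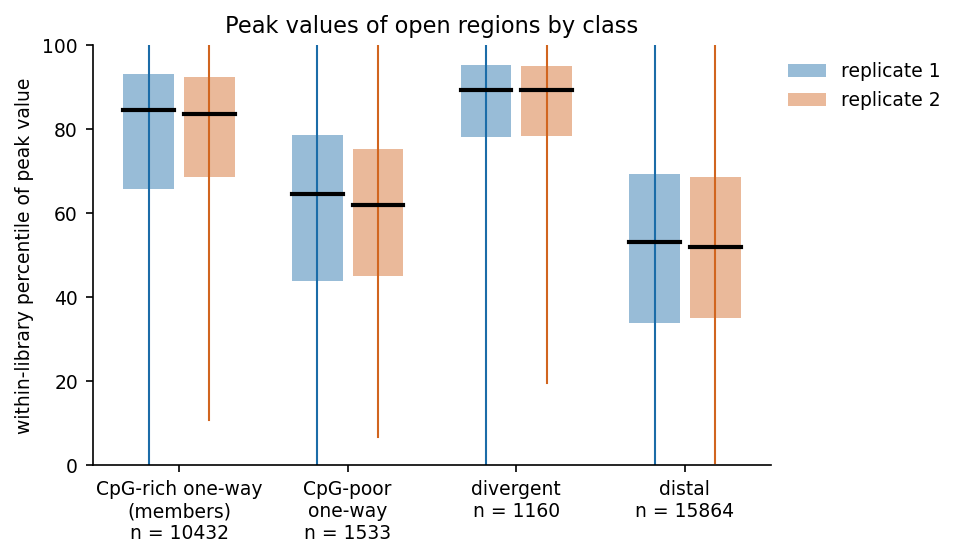
Within-library percentile of the peak value (vertical axis) for regions open in both libraries, by class. Boxes span the quartiles, black bars are medians and thin lines run from the lowest to the highest region; the members' medians are 84.5 and 83.7, below those of divergent promoters (89.5) and above those of CpG-poor promoters (64.7 and 62.0) and distal regions (53.3 and 52.0).

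Values of single members agreed closely between the animals. Spearman's rho between the libraries was 0.912 over the 10432 members, 0.880 over the divergent promoters, 0.847 over the CpG-poor promoters and 0.736 over the distal regions, as a description of regions that share the same 2 libraries. The percentile differed by more than 25 between the animals in 5.99% of the members and in 11.9% of the distal regions.

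The share of start sites that were open rose with the CpG ratio well before the threshold of 0.5. Among one-way coding start sites, the share within 500 bp of a region open in both libraries was 0.626% of 2877 sites at a ratio below 0.1, 22.0% between 0.3 and 0.4, and 41.0% between 0.4 and 0.5. It was 64.6% just above the threshold, between 0.5 and 0.6, then 76.9%, 85.4% and 89.0% in the next 3 steps, and 91.1% of 2459 sites between 0.9 and 1. Each library alone gave nearly the same curve. In all, 82.1% of 19354 CpG-rich one-way sites were open in both libraries (95% exact interval 81.5 to 82.6%), against 12.4% of 18627 CpG-poor one-way sites (11.9 to 12.9%) and 93.1% of 3428 divergent sites (92.2 to 94.0%). Here the ratio was taken around the start site. The rise was gradual, and the values of regions on either side of the threshold overlapped: Slc52a3, Rab3il1 and Cstb, just above it, had values of 3.96, 9.96 and 3.45 in replicate 1 and 3.37, 4.97 and 2.49 in replicate 2, and Nckap5, Fam222b and Taf1b, just below it, had 2.71, 9.23 and 1.98 in replicate 1 and 1.4, 3.79 and 3.71 in replicate 2.

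**Figure D2:**
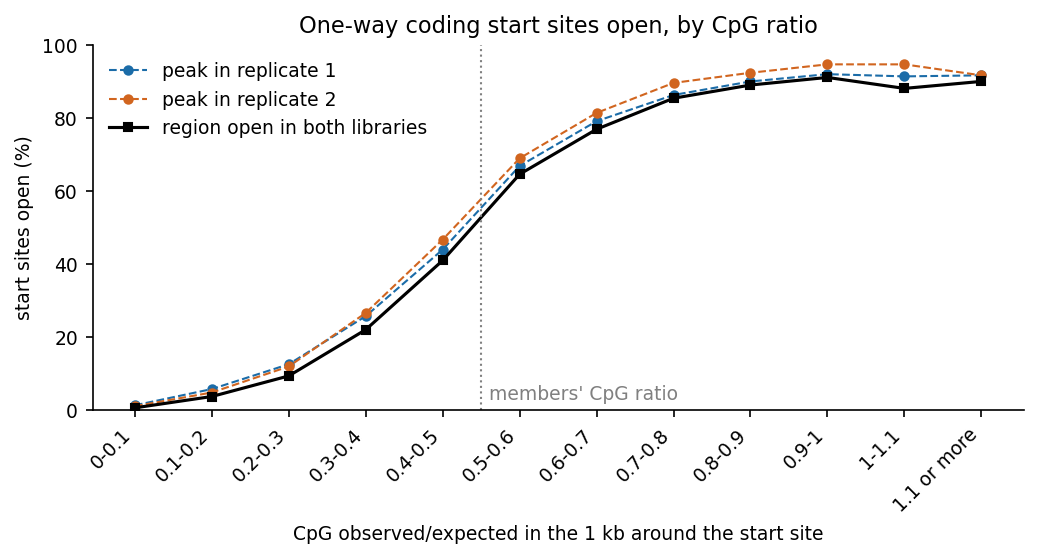
Percent of one-way protein-coding start sites with open chromatin within 500 bp (vertical axis) in steps of the CpG observed/expected ratio (horizontal axis), for peaks of each library and for regions open in both. The dotted line is the threshold of 0.5; the share open in both libraries rises from 41.0% just below it to 64.6% just above it and 91.1% between 0.9 and 1.

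Among the members themselves the height of the peak varied only weakly with the ratio. The median percentile was 76.7 in replicate 1 and 75.5 in replicate 2 at ratios of 0.5 to 0.6, reached 87.3 and 86.5 at 0.8 to 0.9, and was 82.8 and 83.1 at 1 or more. Spearman's rho between ratio and percentile over the 10432 members was 0.126 in replicate 1 and 0.142 in replicate 2. Median width rose from 280 bp at 0.5 to 0.6 to 340 bp at 1 or more.

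A minority of CpG-rich one-way sites had no peak in either library, 12.6% of them or 2435 sites. These sites were not uniformly silent in the deposited table of false discovery rates. In replicate 1, 25.5% of them had at least 1 base with a q-value below 0.05 in the 1000 bp around the site, and in replicate 2 41.5% did, against 6.03% and 7.77% of the 15380 CpG-poor sites with no peak. Open CpG-rich sites had a median of 646 such bases in replicate 1 and 835 in replicate 2. Of the 2435 sites, 348 had a peak in the longer, more permissive peak list of both libraries.

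Open chromatin at members sat slightly upstream of the start site, as it did at the other coding promoters. The median region was 300 bp wide (quartiles 240 and 420 bp), against 300 bp at divergent promoters, 260 bp at CpG-poor promoters and 200 bp at distal regions. Single peaks within members had a median width of 200 bp in replicate 1 and 280 bp in replicate 2. The median midpoint lay at -17 bp, with quartiles of -81 and 67 bp, against -14 bp at CpG-poor and -10 bp at divergent promoters. The start site itself was inside the region in 77.0% of members. The midpoint lay upstream of it in 58.5% of members, 56.8% of CpG-poor and 57.5% of divergent promoters. Averaged over the 9615 start sites, peaks of replicate 1 covered most bases in the 20 bp that begin at -60 bp, 82.0% of sites, and those of replicate 2 at -40 bp, 81.8%. At CpG-poor promoters the highest cover was 71.7% and 70.3%.

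Downstream of the start site the libraries differed in shape. In replicate 1 the cover by peaks dropped to 14.1% at 160 bp and then rose again to 16.9% at 320 bp. In replicate 2 it was 34.1% at 160 bp and 20.8% at 320 bp, with no dip between. Footprints covered at most 24.5% of bases in replicate 1, at -60 bp, and 31.6% in replicate 2, at -40 bp. In the 20 bp that begin at 180 bp they covered 1.98% and 8.50%, against 7.47% and 12.8% in those that begin at -200 bp.

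**Figure D3:**
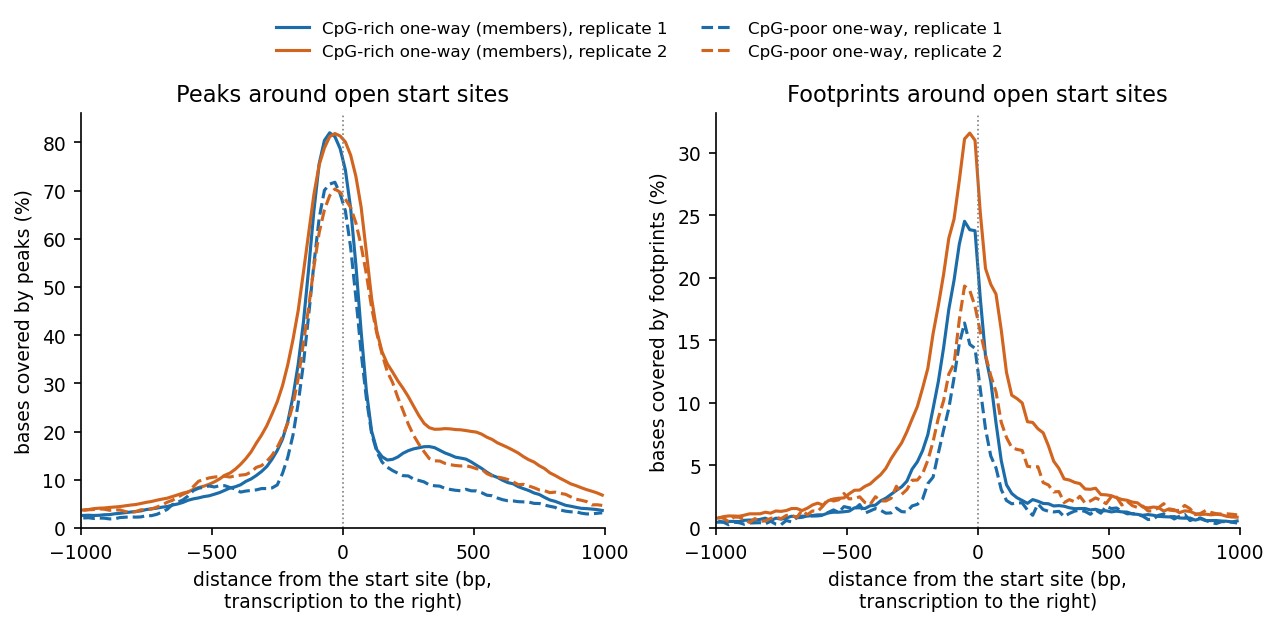
Percent of bases covered by peaks (left) and by footprints (right) in 20 bp steps (vertical axes) against distance from the start site in bp (horizontal axes), for 9615 start sites of members (solid) and 1483 of open CpG-poor promoters (dashed), by library. Cover by peaks of members is highest just upstream of the start site, at 82.0% in replicate 1 and 81.8% in replicate 2, and replicate 1 shows a second, low rise centred near 320 bp.

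Where the midpoint lay went together with how high the peak was. The highest class was midpoints from -150 to -50 bp, 22.0% of members, with median percentiles of 90.8 and 89.1 in replicates 1 and 2 and a shared footprint in 95.7%. Members centred within 50 bp of the start site, 37.2% of all, stood at 87.0 and 86.2. Members centred 300 bp or more downstream, 1047 regions, stood at 48.4 and 61.5, and 49.6% of them held a shared footprint. Percentiles also differed by annotation. The 36.8% of members with an intergenic midpoint stood at 90.1 and 89.0, the 30.8% centred in a UTR at 81.9 in both libraries, the 22.6% in an intron at 76.8 and 77.3, the 6.33% in a coding exon at 65.8 and 70.8, and the 3.44% in another exon at 87.2 and 86.3.

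Most start sites had a single member, 8828 of 9615, while 758 had 2 and 29 had 3 or more. The gap between neighbouring members of a start site had a median of 147 bp (quartiles 60 and 260 bp). In the 758 pairs the upstream region lay at a median of -112 bp and the downstream one at 417.5 bp. The upstream region had the higher value in both libraries in 484 pairs and the downstream one in 168. Most genes, 7296 of 8789, likewise had 1 member, 1366 had 2 and 127 had 3 or more. Mxi1, another partner of Max, had the most, with 6 members at 4 start sites. Their values spanned 1.26 to 5.33 in replicate 1 and 1.35 to 5.11 in replicate 2. Ing1 and Tgif1 followed with 5 members each. All 3 genes were picked with their values in view.

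The 10 members with the highest values by the lower of both percentiles were those of Dynlt1b, Hjurp, Nup107, Add3, Glo1, Hnrnpc, Bahcc1, Tle4, Ing2 and Sde2, with values from 20.8 to 42.3 in replicate 1 and from 13.2 to 32.4 in replicate 2. Hjurp, the chaperone that loads the centromeric histone CENP-A, had 36.5 and 21.5. Add3, an adducin of the membrane skeleton, had 22.2 and 15.4 and 10 shared footprints in 460 bp. Glo1, which detoxifies methylglyoxal, had 21.8 and 14.8. Hnrnpc, a nuclear RNA-binding protein, had 21.3 and 14.9, and Sde2, a splicing and replication factor, had 24.1 and 13.2. In 8 of these 10 the region was at most 260 bp wide. Dynlt1b is 1 of several near-identical gene copies on chromosome 17, and how reads that fit several copies were placed is not given in the sources used here.

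At the other end stood 5730507C01Rik, Pkib, Gm8108, Gpm6b and Gm2237, with values from 0.629 to 0.789 in replicate 1 and from 0.361 to 0.434 in replicate 2, and none held a shared footprint. Pkib encodes an inhibitor of protein kinase A and Gpm6b a membrane glycoprotein of the nervous system. The widest members were those of Nrp1 (2000 bp), a receptor for semaphorins and VEGF, Rev3l (1840 bp), a translesion DNA polymerase, Jade2 (1560 bp), a partner of a histone acetyltransferase, Ptprj (1541 bp), a receptor tyrosine phosphatase, and Sptb (1540 bp), an erythroid and muscle spectrin. Their values ran from 1.84 to 8.94 in replicate 1 and 1.58 to 4.90 in replicate 2, highest for Rev3l. Over the 10432 members, width and percentile had a rho of -0.183 in replicate 1 and -0.190 in replicate 2.

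Nearly all members held footprints, and so did nearly all regions of the other classes. At least 1 footprint of replicate 1 was found in 94.0% of members and at least 1 of replicate 2 in 96.9%, with medians of 4 and 5 per region. The shares were 95.4% and 97.8% at CpG-poor promoters, 93.6% and 95.5% at divergent ones and 96.8% and 98.6% at distal regions. In 86.9% of members (95% exact interval 86.2 to 87.5%) a footprint of 1 library overlapped one of the other. CpG-poor promoters shared a footprint in 81.5% (79.4 to 83.4%), divergent ones in 89.1% (87.2 to 90.9%) and distal regions in 87.1% (86.6 to 87.7%). Footprints covered 14.8% of the members' 3.71 Mb in replicate 1 and 22.9% in replicate 2, and 10.4% was covered in both. Garnl3 had the most shared footprints, 19 in an 800 bp region, followed by Abtb1 and Ppp2r3d with 15, Wipi1, a phosphoinositide-binding autophagy protein, with 14 and Fem1c with 13. Abtb1 had values of 16.5 and 9.80 and Wipi1 of 17.5 and 8.51.

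In all 18 motifs of transcription factors were searched by exact letters on both strands, from 250 bp upstream to 50 bp downstream of each start site. The GC box of Sp and Klf factors (GGGCGG) was found at 73.4% of the members' start sites, at 60.2% of the 3472 CpG-rich one-way sites not open in both libraries, at 44.6% of open CpG-poor sites and at 45.4% of all 41409 coding start sites. The ETS motif of GABPA (CCGGAAGT) was found at 8.33%, 1.32%, 2.09% and 4.95% in the same order. The NRF1 motif (GCGCATGCG) was found at 3.94%, 1.24%, 0.539% and 2.33%, the YY1 motif (AAGATGGC) at 4.59%, 1.44%, 1.08% and 3.30%, and the ZBTB33 motif (TCTCGCGAG) at 1.56%, 0.317%, 0.0674% and 0.908%. The cyclic AMP response element (TGACGTCA) was found at 3.72%, 1.76%, 1.62% and 2.28%. For each of these 6 motifs the share was higher at members than in the other 3 sets. None of the 3 sets was matched to the members in CpG, which all of these motifs except that of YY1 contain. The CpG-poor set has less CpG by construction, and all coding sites include CpG-poor ones as well as the members' own. CpG-rich one-way sites with no peak in either library had a median ratio of 0.651, against 0.768 for those open in both. Open divergent sites, 1131 in number, had a higher share than members of 5 of them, with 13.2% for ETS, 5.04% for NRF1, 7.52% for YY1, 2.74% for ZBTB33 and 4.77% for the cyclic AMP response element, and 70.5% for the GC box. The CCAAT box of NF-Y (CCAATCA), which lacks CpG as the YY1 motif does, was about as frequent at members (9.95%) as at open CpG-poor sites (9.78%).

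Some motifs without CpG were less frequent at members than at open CpG-poor sites. The TATA box (TATAAA) was found at 5.75% of member sites, 8.43% of open CpG-poor sites and 8.12% of CpG-rich sites not open in both libraries. The E-box of the MyoD family (CAGCTG) was found at 13.7%, 23.5% and 14.5% in the same order, the AP-1 motif (TGACTCA) at 2.61%, 5.66% and 3.60%, and the MEF2 motif (CTAAAAATA) at 0.239%, 1.08% and 0.173%. The ERR motif (TCAAGGTCA) was rare in all 3 sets, at 0.229%, 0.202% and 0.374%. A motif match is a run of letters and not a bound site.

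The share of motif matches that lay in footprints differed widely between motifs. Of 756 NRF1 matches within members, 88.1% lay in a footprint of replicate 1 and 92.9% in one of replicate 2, by the middle base. Both strands were searched, so a full NRF1 or ZBTB33 palindrome counts as 2 overlapping matches. The NRF1 matches lay in 450 members and the ZBTB33 matches in 175, so their shares are per match and not per site. For the cyclic AMP response element the shares of 425 matches were 78.6% and 82.4%, for ZBTB33 65.5% and 75.4% of 313, for CTCF (CAGGGGGCG) 64.5% and 73.1% of 501, and for RFX (GTTGCCATG) 61.3% and 66.3% of 80. ETS matches stood between, at 38.2% and 44.3%, and GC boxes at 36.4% and 51.7% of 22369. The CTCF letters end in GGGCG, so a CTCF match followed by G also holds a GC box, and the 2 were not separated. YY1 matches were near the share of all member bases, at 17.8% and 27.2% of 639. MyoD family E-boxes, at 10.7% and 15.9% of 2225, and AP-1 matches, at 6.09% and 3.21% of 312, were below it. The base of comparison moves with position, since footprints covered 21.6% and 30.3% of the central 100 bp of members and 12.1% and 19.9% of the rest. Whether the footprint calls were corrected for the sequence preference of DNase I is not given in the sources used here, and the part of that preference in these shares was not tested.

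**Figure D4:**
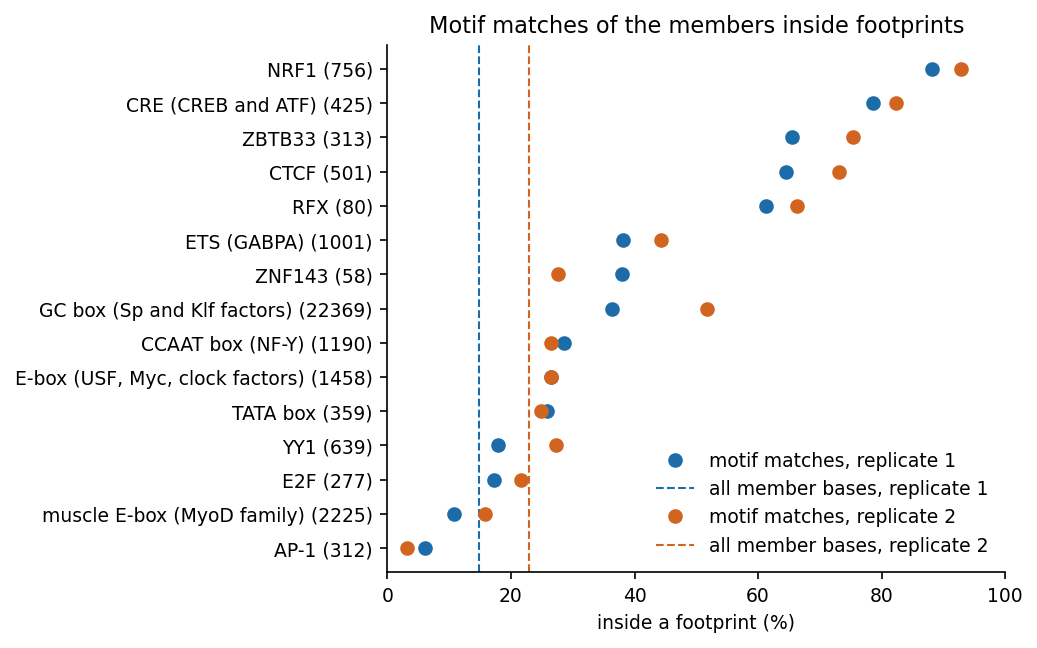
Percent of motif matches in members whose middle base lay in a footprint (horizontal axis) for 15 motifs with at least 50 matches, whose number is in brackets; dots are libraries and dashed lines the share of all member bases in footprints, 14.8% in replicate 1 and 22.9% in replicate 2. NRF1 stands highest, at 88.1% and 92.9%, and AP-1 lowest, at 6.09% and 3.21%. A full NRF1 or ZBTB33 palindrome counts as 2 matches.

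Members that held these motifs also differed in height. Those with a ZBTB33 match in the open region had median percentiles of 93.6 and 92.2 in replicates 1 and 2, against 84.3 and 83.5 without. With a CCAAT box they were 92.4 and 90.6 against 83.3 and 82.7, and with an NRF1 match 91.5 and 91.6 against 84.1 and 83.2. With a MyoD family E-box they were lower, 80 and 79.1 against 85.4 and 84.6, in regions of median width 380 bp against 293.5 bp. CCAAT boxes lay at a median of -64 bp from the start site and YY1 matches at 26 bp, the side of the first transcribed bases. The median percentile was 74.9 and 77.2 for the 949 members with none of the 18 motifs and 90.6 and 89.5 for the 54 with 5 or more, whose median widths were 240 and 500 bp.

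Of 120 genes of basic cell functions 87 had a member, with shares that differed by list. Over all 21851 protein-coding genes, 40.9% had a member within 500 bp of a start site, and another 13.1% had only a CpG-poor or divergent promoter open in both libraries. Members were found at 17 of 20 cytosolic ribosomal protein genes, 16 of 20 proteasome subunits, 16 of 20 translation factors and tRNA synthetases, 14 of 20 genes of the respiratory chain and ATP synthase, 13 of 20 of RNA polymerase II and general transcription factors and 11 of 20 splicing factors. Of the 33 genes without a member in these 6 lists, 32 had a divergent promoter open in both libraries, such as Rpl4, Rpl18, Psma2 and Hnrnpa1, and Polr2g had a CpG-poor one, so none of the 120 genes was without an open promoter.

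Rplp0, a protein of the ribosomal stalk, had values of 16.2 in replicate 1 and 16.3 in replicate 2 in a 220 bp region at chr5:115559281-115559500. Psmb2, a subunit of the proteasome core, had 12.1 and 9.46. Polr2a, the largest subunit of RNA polymerase II, had 11.8 and 9.36. Snrnp70, a protein of the U1 particle, had 25.9 and 11.1. Eif4a1, the helicase of translation initiation, had 17.6 and 11.5, Eif5 17.5 and 11.2, and Eef2, the translocase of elongation, 16.3 and 10.4. Atp5b, the catalytic subunit of ATP synthase, had 12.8 and 7.46. These genes were named because they are high in their lists. Their values lie above the upper quartile of all members, 8.69 in replicate 1 and 5.55 in replicate 2, which does not hold for the lists as a whole. The median values of the 6 lists ran from 6.67 to 11.2 in replicate 1 and from 4.52 to 6.95 in replicate 2. Among the lower members were Taf10, with 2.72 and 2.30, and Psmc1, with 3.07 and 2.18.

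Regulators of chromatin, the circadian clock and the first response to stimuli also had members at most of their promoters. Members were found at 19 of 20 chromatin regulators, 13 of 14 clock genes and 13 of 13 immediate early genes. These shares were 95%, 92.9% and 100%, against 40.9% of all genes. With other processing choices they ranged from 85 to 95%, from 78.6 to 100% and from 76.9 to 100% in the same order. The exception among chromatin regulators was Hdac3, with a divergent promoter. Smarca4, the ATPase of the BAF remodelling complex, had values of 15.6 and 10.9, and Kmt2a, a histone H3 lysine methyltransferase, 14.3 and 9.71. Per3, a repressor of the clock, had 15.4 and 8.21 with 8 shared footprints, and Dbp, an output factor of the clock, 16.9 and 8.10, also with 8. Nr1d1, the repressor REV-ERB alpha, was the clock gene without a member, and its open promoter was CpG-poor. Jun, an AP-1 subunit, had 16.9 and 11.5, Jund 16.2 and 8.75, and Egr1 13.8 and 9.32 at a ratio of 0.520. The median percentile of the list's members was 96.5 and 96.8 for clock genes, 94.6 and 93.1 for immediate early genes and 91.3 and 90.0 for chromatin regulators, beside 84.5 and 83.7 for all members.

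Few contractile genes had a member. Members were found at 3 of 20 sarcomere and contraction genes, 15% against 40.9% of all genes. At a CpG ratio of at least 0.65 the list's share was 5%, and the share of all genes was lower too. Another 7 genes had a CpG-poor and 2 a divergent promoter open in both libraries. Acta1, Ckm, Ttn and Ryr1 were among the former and Actn3 and Mylpf among the latter. The 3 genes with a member were Tpm1, Tpm2 and Actn2. Tpm1, a tropomyosin used in many tissues, had values of 14.6 and 7.35, and Tpm2 had 3.56 and 2.22. Actn2, the alpha-actinin of the Z-disc, had 3.76 and 1.62 and no shared footprint. The other 8 genes, among them Myh1, Myh2 and Myh4, myosin heavy chains of fast fibres, had no region open in both libraries within 500 bp of a coding start site, and none of them had a CpG-rich one-way site. Of 8 markers of muscle fibres, each had an open promoter, 5 of them CpG-poor and 2 divergent, and only that of Des, the intermediate filament desmin, was a member, with 6.21 and 3.11.

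Members were found at 9 of 15 genes of glycolysis and glycogen (60%, against 40.9% of all genes), among them Gapdh with values of 11.6 and 7.01 and Pkm, pyruvate kinase, with 9.78 and 5.49. Pfkm, Tpi1, Pgam2 and Pygm had CpG-poor open promoters, Gys1 a divergent one and Eno3 none. Of 15 regulators of muscle transcription, 10 had members. With reciprocal overlap of peaks 33.3% did, and the share of all genes was lower under that setting too. Mef2a had 11.2 and 7.81 with 10 shared footprints, Tead1 8.25 and 6.09, and Mef2d 8.43 and 5.47. Myod1 had a CpG-poor open promoter, and Myf5, Myf6, Myog and Ppargc1a had none and no CpG-rich one-way site.

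Most developmental factors of other tissues had no open promoter although their start sites were CpG-rich. Of these 20 genes 2 had members (10%, against 40.9% of all genes), both low: Lhx2, with 2.10 and 1.68, and Isl1, with 1.25 and 1.92. The other 18, among them Foxa1, Foxa2, Pax6 and Gata4, had no open promoter, and 16 of these had a CpG-rich one-way start site. From replicate 2 alone the share was 25%. Of 18 Hox genes 6 had members (33.3%, near the 40.9% of all genes), among them Hoxc10 (8.09 and 5.03), Hoxa10 (5.49 and 4.80), Hoxa9 (3.59 and 3.09), Hoxd8 and Hoxd9, and 10 of the other 12 had a CpG-rich one-way site that was not open in both libraries, among them Hoxa11 and Hoxa13. The Hox share was 16.7% with reciprocal overlap of peaks and 55.6% from replicate 2 alone. The share of all genes was also lower with reciprocal overlap, and slightly higher from a single library. Of 15 neuronal genes 3 had members, 20%. At a CpG ratio of at least 0.65 the list's share was 6.67%, and the share of all genes was lower too. The 3 were Stx1a, Map2 and Syp, with values of 4.76, 2.90 and 1.18 in replicate 1 and 2.89, 1.47 and 1.14 in replicate 2. None of 14 matched liver and blood genes had an open promoter or a CpG-rich one-way site.

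Markers of other cells in muscle gave 2 members. Pdgfra, 1 of 3 markers of fibro-adipogenic progenitors, had values of 3.05 and 3.20, while Dcn had a CpG-poor open promoter and Ly6a none. Kdr, a VEGF receptor and 1 of 3 markers of endothelium, had 2.28 and 1.27, while Pecam1 and Cdh5 had no open promoter. None of 4 satellite cell, 4 smooth muscle and pericyte and 3 Schwann cell markers had a member, and 4 of these 11 had another open promoter. The markers of macrophages, lymphocytes, adipocytes, liver, neurons and heart (2 or 3 genes each) had no open promoter. Of all protein-coding genes, 40.9% had a member and another 13.1% had only a CpG-poor or divergent open promoter. With so few markers per cell type, the shares with a member cannot be told apart from that of all genes.

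Members on the X chromosome were lower than those on autosomes in both males, each of which carries a single X. The 280 X-linked members had a median value of 2.91 in replicate 1 (quartiles 1.75 and 4.65) and 1.95 in replicate 2 (1.29 and 2.84). The 10147 autosomal members had 5.14 (2.53 and 8.81) and 3.64 (2.12 and 5.61). The ratio of the medians was 0.566 in replicate 1 and 0.535 in replicate 2, and the quartile ranges overlap. The same ratio was 0.521 and 0.484 for divergent promoters, 0.605 and 0.612 for CpG-poor ones and 0.679 and 0.635 for distal regions, with 25, 78 and 268 X-linked regions. Fewer CpG-rich one-way sites were open on the X, 74.1% of 588 against 82.3% of 18750 on autosomes, and X-linked members had a lower median CpG ratio, 0.705 against 0.776. Within steps of the CpG ratio the X to autosome ratio ranged from 0.472 to 0.849 in replicate 1 and from 0.485 to 0.648 in replicate 2, below 1 in each of the 5 steps. What part the number of X copies, the CpG ratio or anything else has in the lower values was not tested.

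Among the highest X-linked members was that of Kdm6a (11.5 and 6.62), a histone H3 demethylase with a partner on the Y chromosome. The Y chromosome held 5 members at 4 genes. Ddx3y had 2.00 and 1.62, Uty 2.52 and 0.526, Kdm5d 0.752 and 0.815, and Eif2s3y, with 2 members, 2.17 and 0.907 in the higher and 2.13 and 0.585 in the other. In replicate 1 these lie at or below percentile 66.3 and in replicate 2 at or below 59.1.

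**Figure D5:**
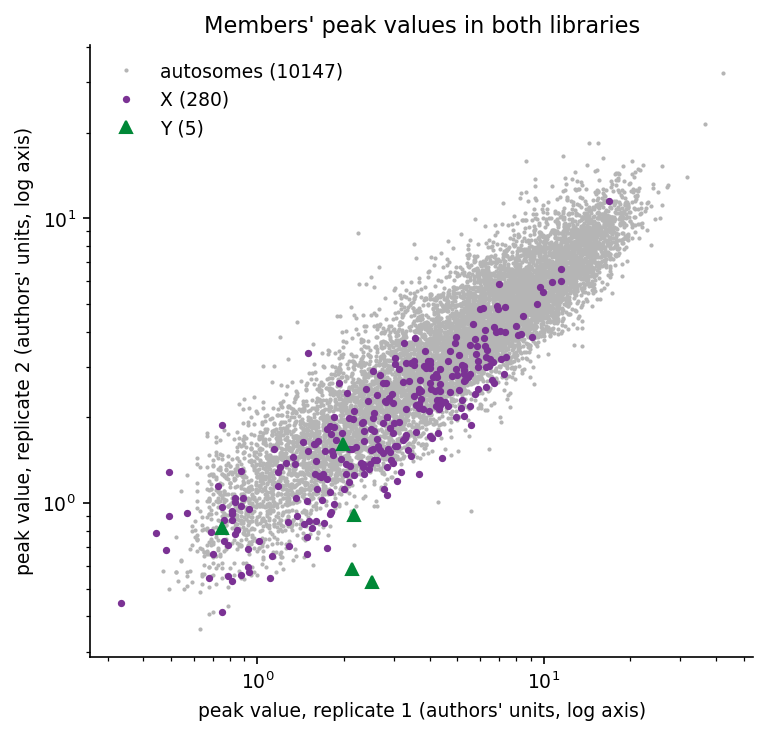
Peak value of each member in replicate 1 (horizontal, log axis) and replicate 2 (vertical, log axis), in the authors' units, with X-linked members (280) and Y-linked members (5) marked over the autosomal ones (10147). X-linked members follow the same diagonal lower down, with medians of 2.91 and 1.95 against 5.14 and 3.64, and 4 of the 5 Y-linked members lie below 1 in replicate 2.

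A few members differed strongly between the 2 animals. Higher in replicate 1 were members of Rps26, Uty, Lsg1, Eif2s3y and Psma6. Rps26, a protein of the small ribosomal subunit, had 5.58 in replicate 1 and 0.940 in replicate 2 at -128 bp, while its other member at 266 bp had 2.80 and 3.12. Lsg1, a GTPase of ribosome assembly, had 4.28 and 1.00. Higher in replicate 2 were members of Hist1h2bb, Zbtb10, Zbtb14, Hnrnpa0 and Mbtps2, with values from 0.666 to 1.05 in replicate 1 and from 1.77 to 3.03 in replicate 2. None of these 5 had a footprint in replicate 1, but they were picked for standing low there, so this is no separate result. Of the 5, 4 were centred downstream of the start site, Zbtb10 by only 14 bp. The same side was seen over all members: of the 1047 centred 300 bp or more downstream, 22.8% had the higher percentile in replicate 1, against 56.2% of the 3633 centred over 50 bp upstream. With 1 library per animal, differences between animals and between libraries cannot be told apart.

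A non-coding start site on the opposite strand within 1 kb upstream was annotated at 864 members, 8.28% (95% exact interval 7.76 to 8.83%), against 3.52% of open CpG-poor promoters (2.66 to 4.57%). Members with such a partner had median percentiles of 87.3 and 86.6 and lay at a median of -35 bp. Those without had 84.2 and 83.4 and lay at -15 bp. The distance between these medians is small beside the spread of the members, whose quartiles were 65.8 and 93.1 in replicate 1 and 68.6 and 92.5 in replicate 2.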

How the data were processed

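DNase-seq libraries of gastrocnemius from 2 male mice, 1 group, were used. Per the labels, positions are on mm10, and the animals are separate biological replicates. Which aligner and callers were used, and how CAST/EiJ alleles were handled, is not given in the sources used here. The authors called peaks per library and deposited a signal value per peak, a score of 0.01 on each footprint line (not used) and q-values (false discovery rates) for runs of bases below 0.05. The shorter of the 2 peak lists per library was the main one. Regions were merged where peaks of either library overlapped by at least 1 bp. Start sites came from GENCODE M21 (basic set, 41409 sites of 21851 coding genes) and sequence from GRCm38.p6. The value of a region is that of its highest peak. Footprints were called shared when they overlapped by at least 1 bp. With 1 group no test over samples was possible; intervals are 95% exact Clopper-Pearson ones for counting error alone, and nearby regions are not independent. Scripts were tested on simulated data. Tools were Python 3.11.15, pandas 2.3.3, scipy 1.17.1 and pysam 0.24.0.

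Members, gene lists and motifs were chosen with earlier results of these data known. Named were the 10 highest members by the lower percentile, the 5 lowest by the upper, the 5 largest differences each way, the 5 widest, the 5 with most shared footprints, the 3 on each side of the CpG threshold, the 3 highest X-linked and all Y-linked members, and in each list the 3 highest members and up to 2 genes without one, with other list genes added as examples. A few items that this rule would name are not reported here. Alternatives were the longer lists, a value minimum, reciprocal overlap, other start site and CpG settings and each library alone. Of the lists, all symbols except Hbb-b1 matched.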

Additional observations from a re-analysis of the deposited data

How the results depend on the processing

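Under the 10 alternatives the number of members stayed within 1.5 times of 10432. It was lowest, 7609, with peaks that overlapped reciprocally by at least 50% and 11756 with the longer peak lists, and 12313 to 12443 from single libraries.

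The share of coding genes with a member was 43.6% with the longer lists, 36.4% with peaks of at least the median height, 32.1% with reciprocal overlap, 39.8% when opposite-strand starts in either order counted as divergent, 33% with a CpG ratio of at least 0.65, 42.2% with a CpG window of 500 bp, and 41.6 to 43% from single libraries. The share of CpG-rich one-way start sites that were open was 87.3%, 73.2% and 63.7% with the first 3 of these, 79.3% with start sites within 250 bp, 86.8% with the higher CpG ratio and 83.5 to 86.2% from single libraries.

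The members' median percentile in replicate 1 was 88.7 (longer lists), 87.8 (higher peaks), 87.4 (reciprocal overlap), 85.7 (250 bp), 85.9 (higher CpG ratio) and 80.8 without the other library. In replicate 2 it was 88.7, 87, 86.5, 84.8 and 85 in the same order and 79.7 without the other library. The share with a footprint was 90.2% and 98.1% in replicate 1 and 94.3% and 99.6% in replicate 2 with the longer lists and the higher peaks, and 84.9% and 90.3% among the members of each library alone. The share with a shared footprint was 79.9% (longer lists), 95.3% (higher peaks), 90.7% (reciprocal overlap) and 89.8% (250 bp). Median width was 200 to 260 bp from single libraries, where no peaks of the other library are merged in. A non-coding partner was found at 8.57% (higher peaks), 8.03% (reciprocal overlap), 8.88% (higher CpG ratio) and 8.29 to 8.49% (single libraries). For the other changes the cause was not tested. Several small lists moved widely. The share of genes with a member ranged from 16.7 to 55.6% for Hox genes, from 33.3 to 73.3% for muscle regulators and from 5 to 20% for sarcomere genes, from 5 to 25% for developmental factors of other tissues, from 6.67 to 26.7% for neuronal genes and from 16.7 to 66.7% for Y-linked genes. The ratio of X-linked to autosomal medians ranged from 0.543 to 0.644 in replicate 1 and from 0.499 to 0.591 in replicate 2. All of these values rest on 2 libraries of unknown depth, so a promoter without a peak is one below the authors' threshold.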
